A study of Mus musculus with 8 samples.

Results

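The genes described here are 10 genes of the cardiomyocyte, the contracting cell of the heart, measured in sorted cardiac mesenchymal stromal cells (cMSCs). They are Myh6, Myl2 and Myl3 of the thick filament, Actc1, Tnnt2, Tnni3 and Tnnc1 of the thin filament, Pln and Ryr2 of calcium handling, and Nppa, which encodes a secreted peptide. They were chosen by name, and every non-control probe carrying one of these names was taken, which gave 17 of the 56605 probes and 10 of the 37074 gene names on the array. A probe was kept when the scanner software called it well above background in every young pool or in every aged pool. By that filter 12 of the 17 probes and 9 of the 10 genes could be compared, among 20096 genes in all.

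The arrays held RNA of cMSCs sorted from ventricles of male C57Bl/6 mice as cells with Sca-1 and PDGFRα on their surface and without CD31 or CD45. There were 4 pools of young mice (replicates 2, 3, 4 and 5) and 4 pools of aged mice (replicates 1, 2, 3 and 4), given as 5 and 20 months old by the labels, with 3 mice to a pool. The mouse code of aged replicate 4 can also be read as 2 mice. The study used more than 1 line of C57Bl/6 mice, and the sources used here do not tell which of them gave these pools. No mouse in either group carried a treatment by the labels. Each pool was hybridised once, so that p values measure the spread between pools.

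In a cardiomyocyte, myosin of the thick filament pulls on actin of the thin filament once calcium has bound troponin. The calcium comes from the sarcoplasmic reticulum through the ryanodine receptor and is pumped back by a pump that phospholamban restrains. cMSCs lie between these cells, make the collagen matrix and do not contract, and ventricular tissue has to be digested to free them. The transcripts of the sarcomere are very abundant in the heart and serve as markers of the muscle cell.

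The sequences of 4 probes that carried the measurements of troponin I, troponin C and the essential myosin light chain are shown first, because an array value refers to these 60 bases and not to a whole transcript. They are as the array files give them, with positions on mm9, and a position that spans more than 60 bases crosses an intron. The upper 2 probes lie in Tnni3, at chr7:4472043-4472102 and chr7:4471129-4472051, and the 9 bases they share are in capitals. The Tnnc1 probe lies at chr14:32023360-32023776 and has no capitals. The Myl3 probe lies at chr9:110671632-110671926, and its capitals mark a run of 24 bases that a probe of Myl6, a light chain of non-muscle and smooth muscle myosin, also holds.
Tnni3 probe A_51_P386983: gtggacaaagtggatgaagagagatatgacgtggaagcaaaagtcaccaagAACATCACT
Tnni3 probe A_55_P2502861: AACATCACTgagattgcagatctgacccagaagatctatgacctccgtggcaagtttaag
Tnnc1 probe A_51_P461894: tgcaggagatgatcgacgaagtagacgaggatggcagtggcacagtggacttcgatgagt
Myl3 probe A_51_P177210: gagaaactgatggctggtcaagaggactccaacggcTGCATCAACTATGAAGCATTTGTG
That Myl3 run was the only run of 20 or more bases that any of the 17 probes had in common with a probe of another gene. The Myl6 probe holding it, chosen for that reason, gave a signal well above background in each of the 8 pools and differed by −0.17 on the log2 scale, aged minus young. The part of that resemblance in the Myl3 values was not tested.

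The bases before the transcription start are shown for Myl3, whose aged pools all lay below its young pools, and for Nppa, whose pools followed another order. Both are from RefSeq on GRCm38.p6, 250 bases upstream of the start, on the plus strand, at chr9:110763428-110763677 and chr4:148000472-148000721. Capitals mark CATTCC (the MCAT element) and the CArG box in Myl3 and TATAAA in Nppa, and none of these overlap each other.
Myl3 upstream: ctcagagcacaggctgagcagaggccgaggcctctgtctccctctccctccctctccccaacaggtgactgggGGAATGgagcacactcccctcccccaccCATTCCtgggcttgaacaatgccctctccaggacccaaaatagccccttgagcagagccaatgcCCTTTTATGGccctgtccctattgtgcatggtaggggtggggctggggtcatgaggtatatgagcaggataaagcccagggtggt
Nppa upstream: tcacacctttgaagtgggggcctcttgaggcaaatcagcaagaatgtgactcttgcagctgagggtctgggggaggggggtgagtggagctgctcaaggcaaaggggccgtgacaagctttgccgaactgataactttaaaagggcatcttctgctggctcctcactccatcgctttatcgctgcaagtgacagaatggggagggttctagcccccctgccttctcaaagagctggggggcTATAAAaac
All 10 genes were found in that table, with 12 start sites. CATTCC, searched on both strands, stood before 4 of the 12 starts (Myh6, Myl3, Tnnc1 and Tnnt2) and before 12.6% of 32817 start sites of all genes. AGATAA, searched on both strands, stood before 3 of them (Myl2, Pln and Tnnt2) and before 9.99% of all. The CArG box stood before those of Actc1 and Myl3 and before 1.47% of all, while the MEF2 box stood before none of the 12 and before 2.92% of all. TATAAA, searched on the gene's own strand, stood before those of Nppa and Pln and before 7.6% of all. These are matches of letters.

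Values below are log2 signals relative to the 75th percentile of each array, so that 0 is the signal of a spot at that percentile, and they are compared between pools for 1 probe at a time. A gene passed the test when its p from limma, after Benjamini-Hochberg adjustment over the 20096 genes, was under 0.05. By that rule 2 of the 9 genes, Tnni3 and Pln, were lower in aged pools and none was higher. Pln entered the comparison through the young pools, where its probe was above background in all 4, against 2 of the aged pools. Of the 8 genes well above background in all 8 pools, a fit of such genes alone found Tnni3 and Tnnc1 lower (adjusted p 0.0455 and 0.0488 by limma), where 0.765% of 19073 genes were lower, and the median of those 8 was −0.48. In the fit of 20096 genes, 0 or 1 of the 9 passed with any 1 of the 8 pools left out. Without young replicate 3 or aged replicate 2 the 1 was Pln, and without any other pool none passed. Over all genes 0.791% were lower and 2.45% higher. At an unadjusted p under 0.05, 7 of the 9 were lower and none higher, against 5.44% and 8.69% of all genes. In the fit of genes well above background in all 8 pools, 6 of the 8 were lower at that p. The median difference of the 9 genes, aged minus young, was −0.49, beside 0.0057 over all genes. In RNA of pooled cells, fewer cells of a type and less RNA per cell cannot be told apart. By the thresholds of the study, p of 0.01 and 0.5 on the log2 scale, Pln and Tnnc1 were lower, and 1.24% of all genes were. All 4 aged pools lay below all 4 young pools for 5 of the 9 genes (Actc1, Tnni3, Tnnc1, Myl3 and Pln), and for 3.86% of all genes. An exact two-sided permutation test gave 0.0286 for these, the smallest p that 4 pools against 4 allow. Pln, which entered through its young pools, is 1 of these 5. It is also 1 of the 7 lower at an unadjusted p and 1 of the 2 by the study's thresholds.

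**Figure D1:**
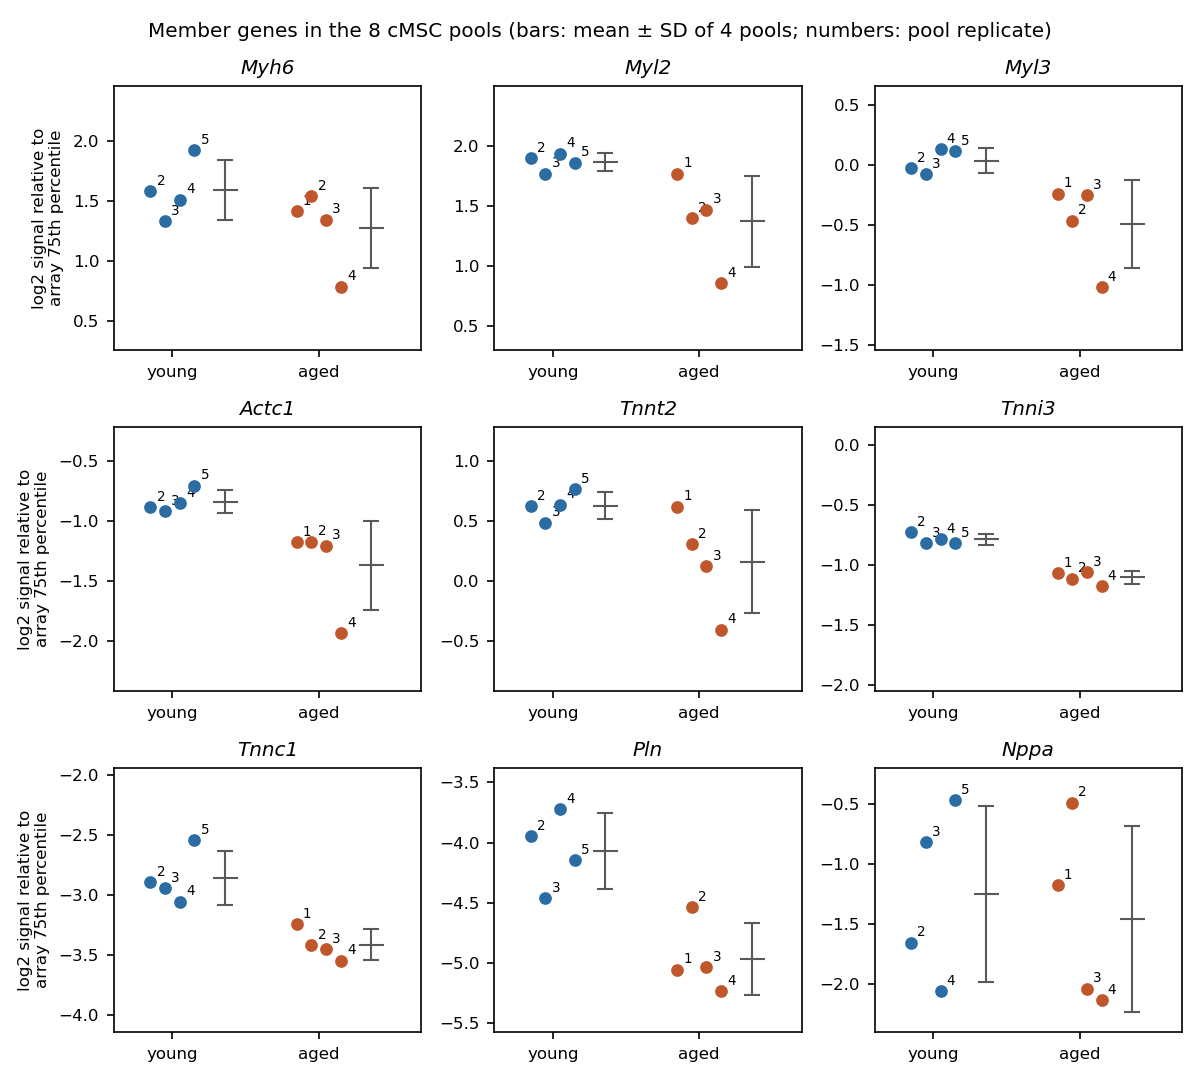
Log2 signal relative to the array's 75th percentile (vertical axis, the same height of scale in every panel) in the 4 young and 4 aged pools for the 9 genes that could be compared, with the mean and SD beside the points. Aged replicate 4 is the lowest point of every panel, and the groups do not overlap for Myl3, Actc1, Tnni3, Tnnc1 and Pln.

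Of the thick filament, Myh6, the main myosin motor of the adult mouse heart, was at 1.58, 1.33, 1.51 and 1.93 in young replicates 2, 3, 4 and 5 and at 1.42, 1.54, 1.35 and 0.79 in aged replicates 1 to 4. Only aged replicate 4 lay outside the span of the young pools. The difference was −0.32 with an SE of 0.18 and an adjusted p of 0.541 by limma. The other Myh6 probe, at chr14:55584132-55584191, was well above background on 4 young and 2 aged arrays and differed by −0.19.

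Myl2, the regulatory light chain of the ventricle, was nearly level in young pools at 1.90, 1.77, 1.93 and 1.86, and was at 1.77, 1.40, 1.47 and 0.86 in aged pools. Aged replicate 1 met the lowest young pool and the other aged pools lay below it. The SD over pools was 0.071 in young and 0.378 in aged pools, and the difference of −0.49 (SE 0.17) had an adjusted p of 0.218 by limma. Myl3, the essential light chain of the ventricle, was at −0.03, −0.07, 0.13 and 0.11 in young pools and at −0.24, −0.46, −0.25 and −1.02 in aged pools. The groups did not overlap, yet the difference of −0.53 (SE 0.17) did not pass, with an adjusted p of 0.172 by limma. For both light chains aged replicate 4 lay well below the other aged pools.

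Of the thin filament, Actc1, the actin of heart muscle, was at −0.88, −0.92, −0.85 and −0.71 in young pools and at −1.17, −1.17, −1.21 and −1.93 in aged pools. The first 3 aged pools lay within a narrow span, close below the young pools, and aged replicate 4 stood apart. The difference was −0.53 (SE 0.17), with an adjusted p of 0.174 by limma, and it was −0.34 without aged replicate 4. Tnnt2, the troponin subunit that holds the complex on tropomyosin, was at 0.62, 0.49, 0.64 and 0.77 in young pools and at 0.62, 0.31, 0.12 and −0.41 in aged pools. Here the groups overlapped through aged replicate 1, and the difference of −0.47 (SE 0.20) had an adjusted p of 0.325 by limma. The other 2 Tnnt2 probes were well above background on no array.

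Tnni3, the inhibitory troponin subunit of the adult heart, fell with age. Its values were −0.73, −0.82, −0.78 and −0.82 in young pools and −1.07, −1.11, −1.06 and −1.18 in aged pools, which is a tight band in each group and no overlap. The difference was −0.32 with a 95% interval of −0.47 to −0.16, or 19.7% lower signal, and an adjusted p of 0.0464 by limma. On this probe aged replicate 4 was near its group, and the difference without that pool was −0.29. The adjoining Tnni3 probe shown above was at −1.03, −1.05, −1.13 and −0.71 in young pools and at −1.32, −1.36, −1.39 and −1.66 in aged pools, a difference of −0.45 (SE 0.12), again with no overlap, although aged replicate 4 lay further from the other aged pools there. Leaving out any 1 of the 8 pools raised Tnni3 above the threshold, to an adjusted p of 0.07 to 0.131 by limma, with a difference of −0.33 to −0.29.

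Tnnc1, the troponin subunit that binds calcium in heart and slow muscle, was at −2.89, −2.94, −3.06 and −2.54 in young pools and at −3.24, −3.42, −3.45 and −3.55 in aged pools. The groups did not overlap, and aged replicate 4 was near the other aged pools. The difference of −0.56, with a 95% interval of −0.84 to −0.27, had an adjusted p of 0.0514 by limma, just over the threshold, and it passed under 5 of the 21 other settings.

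Of calcium handling, Pln, which encodes phospholamban, the brake of the calcium pump, fell with age in that fit. It was at −3.95, −4.46, −3.72 and −4.15 in young pools and at −5.06, −4.54, −5.04 and −5.24 in aged pools, without overlap. The probe was well above background in 4 of 4 young pools and in 2 of 4 aged pools. The difference was −0.90 with a 95% interval of −1.34 to −0.46, or 46.3% lower signal, and an adjusted p of 0.0451 by limma. The size of this difference was not the same in other processing. It was −0.27 after normexp correction with an offset of 50 and −0.43 in the authors' own log2 table, and it passed in neither (adjusted p 0.189 and 0.153 by limma). The cause was not tested. Without 1 pool it passed only when young replicate 3 or aged replicate 2 was the one left out, and the adjusted p ranged from 0.0265 to 0.124 by limma.

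Ryr2, the calcium release channel, had 3 probes and none could be compared. One was well above background on the array of young replicate 3 alone, at −1.29, another on that of aged replicate 2 alone, at −3.63, and the last on none.

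Nppa encodes atrial natriuretic peptide, a hormone that the adult heart makes mainly in the atria. It was at −1.65, −0.81, −2.06 and −0.47 in young pools and at −1.17, −0.49, −2.04 and −2.13 in aged pools. Both groups held pools high and low in Nppa, with an SD of 0.733 and 0.777, the widest spread of the 9 genes. The difference was −0.21 with a 95% interval of −1.24 to 0.82 and an adjusted p of 0.919 by limma. Its sign turned without aged replicate 4 (0.015) and without young replicate 5 (0.050). In the first row of the slide, which held young replicates 3 and 5 and aged replicates 1 and 4, the difference was −1.01, and in the second row it was 0.59. The other Nppa probe ranked the 8 pools in nearly the same way, from −4.47 in young replicate 4 to −1.96 in young replicate 5. The other 8 genes were lower in aged pools within both rows.

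**Figure D2:**
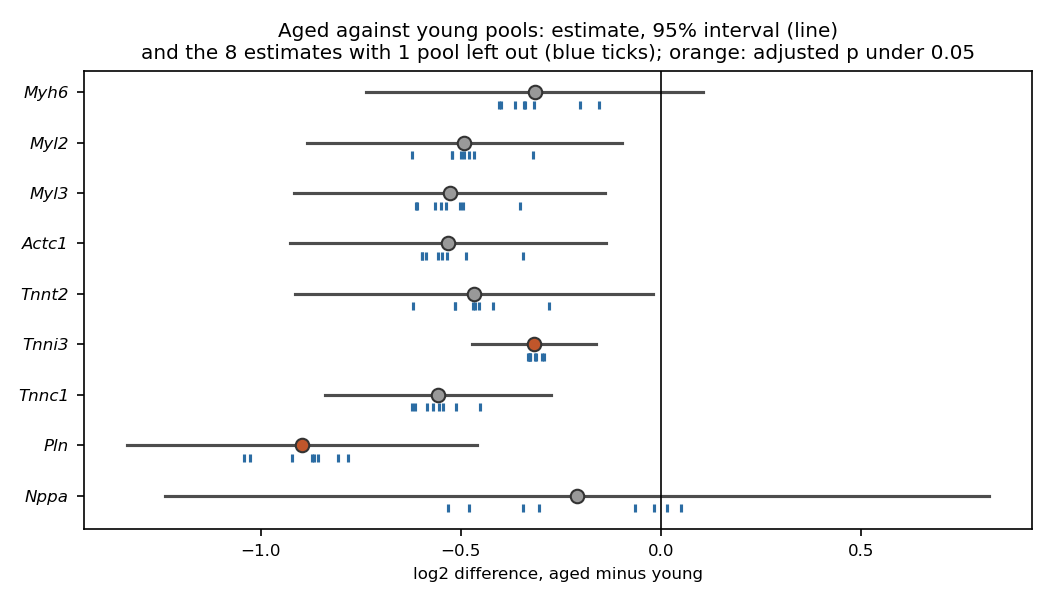
Log2 difference of aged minus young pools (horizontal axis) for 9 genes, with the 95% interval from limma as a line and the 8 estimates with 1 pool left out as blue ticks. The intervals of Myh6 and Nppa hold 0, those of the other 7 genes lie below 0, and only Tnni3 and Pln, in orange, passed after adjustment.

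Aged replicate 4 was the lowest of the 8 pools for all 9 genes, while it was the lowest for 21.5% of all genes. Without it the differences of Tnni3, Tnnc1 and Pln were −0.29, −0.51 and −0.81, near those with all pools, while that of Actc1 moved from −0.53 to −0.34. The highest pool was young replicate 5 for 5 genes, young replicate 4 for 3 and young replicate 2 for 1. The mean of the 9 genes, each centred on its own mean over the pools, was 0.20, 0.16, 0.18 and 0.42 in young pools and −0.03, −0.01, −0.25 and −0.66 in aged pools. Pln, which entered through its young pools, is 1 of the 9 genes in this mean. No aged pool reached a young pool on this mean. The gap from young replicate 3 to aged replicate 2 was small, however, beside the distance of aged replicate 4 from the others. The signal at the 75th percentile of that array, 501, and its share of spots well above background, 60.2%, lay within the range of the other 7 arrays.

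A further 83 genes with a role in heart muscle were listed by that role to set beside the members. Not all of them are particular to muscle. The study found Gata4, Tbx5, Tbx20 and Hand2 higher in cMSCs than in endothelial cells. On these arrays Gata4 and Tbx20 had young means of 1.85 and 2.68. All were on the array and 63 could be compared, of which 1 passed as higher and 2 as lower in aged pools, with a median difference of −0.077. At an unadjusted p under 0.05, 4 were higher and 12 lower, against 8.69% and 5.44% of all genes. Srl, 1 of the 12 lower, entered through its young pools. The median of the 63 is nearer to that of all genes than to the −0.49 of the members. Aged replicate 4 was the lowest pool for 22 of the 63, or 34.9%. Among the 20 that could not be compared were Ckm, the creatine kinase of muscle, and the ventricular peptide Nppb.

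The enzymes and carriers of muscle energy supply came nearest to the members. Of 12 tested genes 2 were lower and none higher, 10 had a difference below 0, and the median was −0.49. At an unadjusted p under 0.05 by limma, 6 of the 12 were lower and none higher, against 5.44% and 8.69% of all genes. Slc2a4, the insulin-responsive glucose transporter of muscle and fat, fell by 0.97 on the log2 scale, from 0.61, 0.24, 0.04 and 0.14 in young pools to −0.75, −0.51, −0.87 and −0.72 in aged pools (adjusted p 0.00752 by limma). Cox7a1, the heart and muscle form of a cytochrome oxidase subunit, fell by 0.76, from 1.36, 1.45, 1.35 and 1.11 to 0.75, 0.72, 0.52 and 0.25 (adjusted p 0.0182 by limma). In neither gene did the groups overlap. Cox7a1 lost its call when young replicate 2, 3 or 4 or aged replicate 3 was left out, with an adjusted p of up to 0.0639 by limma. It also lost it with no filter on dim probes and with pool code or replicate number as a block (adjusted p 0.0833, 0.0858 and 0.154 by limma). Slc2a4 lost its call with replicate number as a block (adjusted p 0.127 by limma).

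Of the 11 tested genes of the Z-disc and intercalated disc, Ankrd1, a stress-responsive ankyrin repeat protein of muscle that other cells also make, rose and none fell. It was at −3.74, −3.30, −3.03 and −3.37 in young pools and at −1.62, −1.88, −2.15 and −2.12 in aged pools. That is a difference of 1.42 (SE 0.17) with an adjusted p of 0.00408 by limma. The difference was 0.85 after normexp correction and 1.02 in the authors' log2 table, and it passed in both. Ankrd1 lost its call with replicate number as a block (adjusted p 0.169 by limma). The median of that list was 0.0072, and 2 of its genes were higher and 3 lower at an unadjusted p under 0.05.

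In the other lists no gene passed by limma in either direction. The remaining 8 thick filament genes had a median of −0.024, and their largest difference was that of the atrial light chain Myl7, at −0.83 (SE 1.04). Among 5 thin filament genes the median was 0.13 and the largest difference was that of Nebl, a nebulin relative of heart muscle, at 0.26 (SE 0.34). The 12 genes of calcium handling had a median of −0.17, with 3 lower and 1 higher at an unadjusted p under 0.05. Of the 3 lower, Srl entered through its young pools, with a probe well above background on 4 young and 2 aged arrays. The largest fitted difference of that list was that of Sln, the atrial relative of phospholamban, at −1.11 (SE 1.22). The Sln probe, too, was well above background on 4 young and 2 aged arrays. Of 7 ion channels and connexins the largest difference was that of the pacemaker channel Hcn4, at 0.71 (SE 0.49). Of the natriuretic peptide axis 2 genes were tested, and the receptor Npr1 differed by −0.13 (SE 0.14). Among 6 cardiac transcription factors Nkx2-5, an early factor of the heart lineage, differed by −0.64 (SE 0.36), on a probe well above background on 4 young arrays and 1 aged array. At an unadjusted p under 0.05, 1 thick filament gene was higher, and none of the thin filament genes, channels, peptide axis genes or transcription factors was called in either direction.

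**Figure D3:**
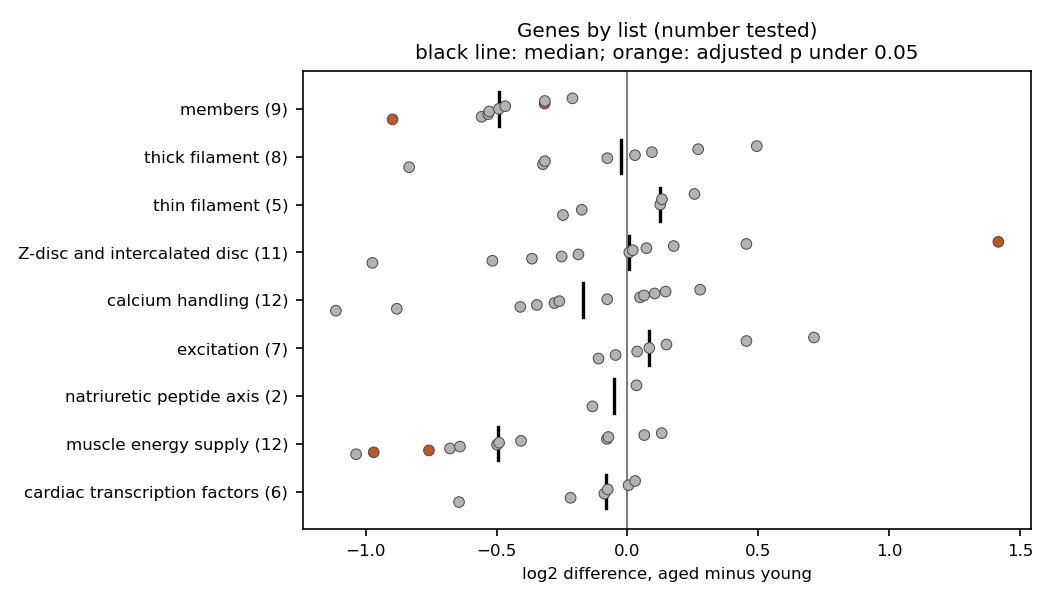
Log2 difference of aged minus young pools (horizontal axis) for the 9 members and for 63 further genes in 8 lists, 1 point a gene. The median of each list is a black line, and genes past the adjusted threshold are in orange. The medians of the members and of muscle energy supply are both −0.49, while those of the other lists lie between −0.17 and 0.13.

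The members were compared with each other over the 8 pools in 36 pairs. Pearson's r was above 0 in all 36, from 0.10 to 0.97 with a median of 0.79, and Spearman's rho had a median of 0.76. With exact permutation of the pools and adjustment over the 36 pairs, 24 pairs passed for r and 14 for rho. Those 24 include the pairs of Pln, which entered through its young pools, with Actc1, Tnni3, Myl2 and Myl3. The closest pairs were Myl2 with Myl3, Myl2 with Tnnt2, and Actc1 with Myl3, each with r of 0.97, and Myl2 with Myl3 had an adjusted p of 0.0112 by the exact permutation test. A part of this is the difference between the age groups. After each group's mean was taken away, r had a median of 0.55 and was above 0 in 34 pairs, 8 pairs had an unadjusted exact permutation p under 0.05, and none passed after adjustment. The pattern also rested on 1 pool. Without aged replicate 4, 32 pairs had r above 0 and the median was 0.69, but no pair passed, and the median r within groups was 0.24, whereas without any other pool 11 to 23 passed, the lowest count being that without young replicate 2. When the 2 pools farthest from the median of the gene on the x axis were left out, of which aged replicate 4 was 1 in every pair, r had a median of 0.68 over the remaining 6 pools and was above 0 in 31 pairs.

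None of the 8 pairs with Nppa passed for r or rho, and their median r was 0.37, beside 0.82 for the 28 pairs of the other genes. Without the 2 farthest pools the median r of the pairs with Nppa was −0.026 and that of the others 0.79. Nppa and the other members share the same libraries, so that the difference between the 2 sets of pairs was not tested.

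**Figure D4:**
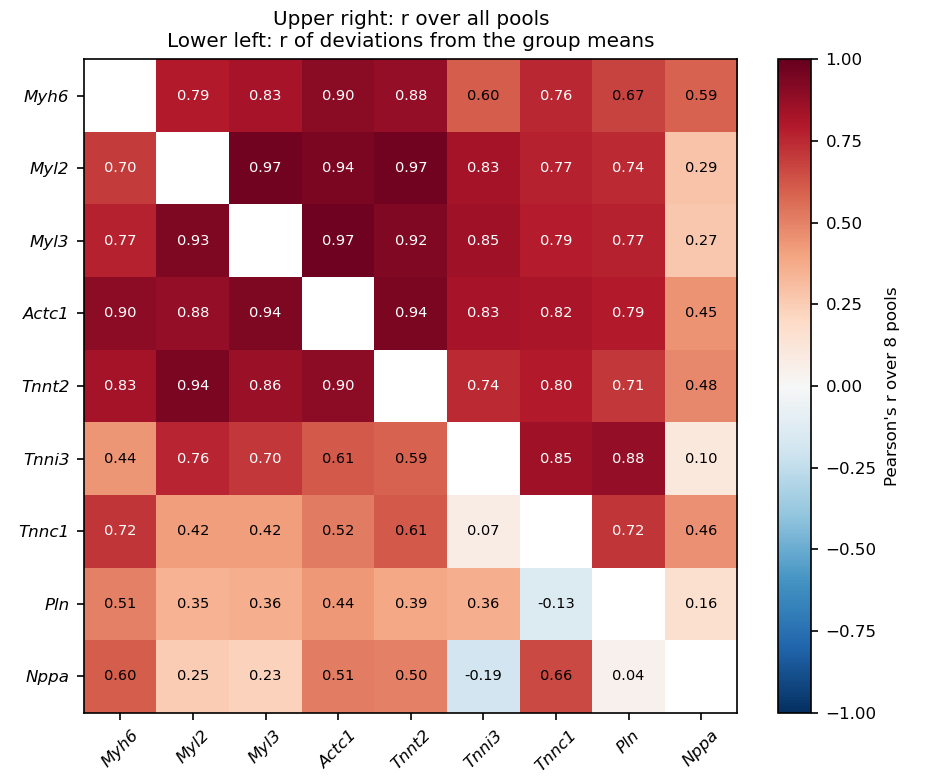
Pearson's r between 9 genes over 8 pools, above the diagonal for all pools and below it for deviations from the mean of each age group. Myl2, Myl3, Actc1 and Tnnt2 are dark with each other on both sides, Tnni3 with Tnnc1 goes from 0.85 above to 0.07 below, and the column of Nppa is the palest above the diagonal.

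The mean of the centred members was set against 7045 genes whose SD over pools was at least 0.25. These values are a description over 8 pools that share the members' arrays, and the genes compared were not chosen for any role. The 10 named genes most like it were Mb (r of 0.974), Megf10, Rasgrp4, Col2a1, Zfp493, Slc38a5, Gprasp2, Cox6a2, Arhgap44 and Csrp3 (r of 0.952). Mb is the oxygen store of heart and red muscle, Cox6a2 the muscle form of a cytochrome oxidase subunit, and Csrp3 a Z-disc protein of striated muscle, while Col2a1 is the collagen of cartilage. Of 36 genes of the lists by role with that spread, 5 were among the first 100, namely Mb, Cox6a2, Csrp3, Pgam2 and Fabp3. Their median r was 0.46, beside −0.20 over all 7045 genes. Mb was at 0.40, 0.22, 0.50 and 0.54 in young pools and at 0.08, 0.01, −0.13 and −0.86 in aged pools. Like the members it was lowest in aged replicate 4, and its difference of −0.64 had an adjusted p of 0.158 by limma. With Nppa left out of the mean, Mb was first (r of 0.991) and 6 of the 36 genes were among the first 100. Thy1, a surface antigen of the stromal cells, had r of 0.962 there. It was at 4.18, 4.20, 4.50 and 4.34 in young pools and at 3.70, 3.86, 3.68 and 3.16 in aged pools. Pln, which entered through its young pools, is in both means.

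The genes most like Nppa were looked up after its values had been seen. Myl7, the myosin light chain of the atria, was first with r of 0.988 over 8 pools, and Sln, a small regulator of the calcium pump found mainly in atrial muscle, was next with r of 0.944. Myl7 was at −2.44, −0.73, −3.76 and −0.19 in young pools and at −1.71, −0.42, −3.94 and −4.39 in aged pools. Sln was at −4.36, −2.43, −4.94 and −2.08 in young pools and at −3.18, −1.72, −7.09 and −6.28 in aged pools, and its probe was well above background on 4 young and 2 aged arrays. In all 3 genes young replicates 3 and 5 and aged replicates 1 and 2 were the high pools, so that the high pools fell equally in both age groups. Myl4, the other atrial light chain, had a narrower span, from 0.18 to 0.80. It was at 0.18, 0.60, 0.21 and 0.79 in young pools and at 0.35, 0.80, 0.30 and 0.44 in aged pools. Its highest pools were aged replicate 2 and young replicates 5 and 3. Nppa correlated with Myl2, the ventricular light chain, with r of 0.29.

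**Figure D5:**
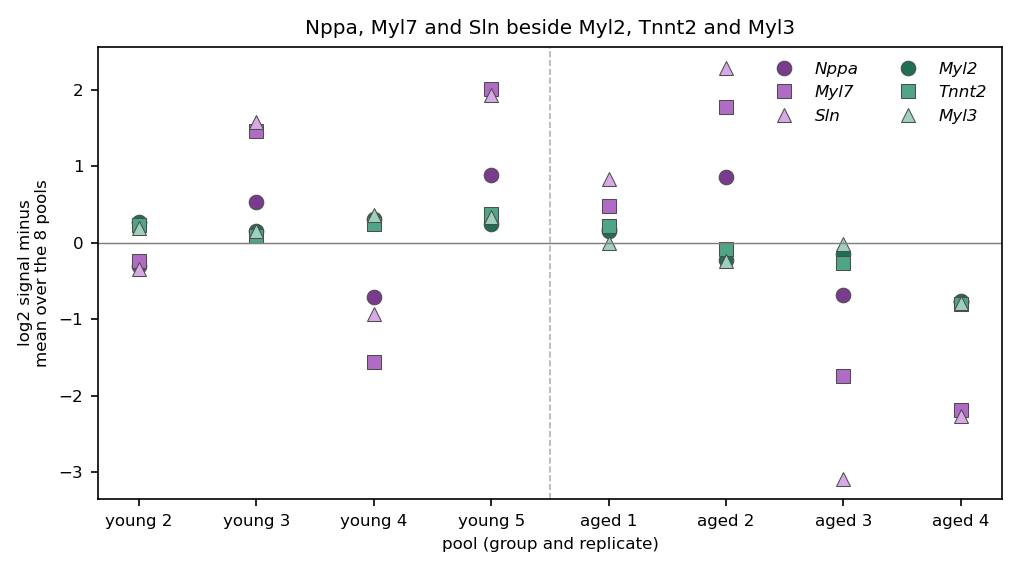
Log2 signal minus the gene's own mean over the 8 pools (vertical axis) in each pool (horizontal axis) for Nppa, Myl7 and Sln in purple and Myl2, Tnnt2 and Myl3 in green. The purple genes are high in young 3, young 5, aged 1 and aged 2, while the green genes lie close to 0 except in aged 4.

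Markers of other cells were followed beside these values. All 10 genes of the cMSC and fibroblast list were well above background, among them the sorting markers Pdgfra, which differed by −0.20 (adjusted p 0.353 by limma), and Ly6a, the gene of Sca-1, which rose by 0.67 (adjusted p 0.0494 by limma). Thy1, another stromal surface antigen, fell by 0.71, so that 1 gene of this list passed in each direction. At an unadjusted p under 0.05, 5 of the 10 were lower and 1 was higher, and 4 of the 10 had all aged pools below all young pools, among them the collagens Col1a1, Col1a2 and Col3a1 with differences of −0.37, −0.36 and −0.38. Pecam1 (CD31) differed by 0.028 and Ptprc (CD45) by 0.072, and neither passed. None of 8 endothelial, 6 leukocyte, 8 smooth muscle and pericyte, 2 Schwann, 3 erythroid, 2 mesothelial and 3 skeletal muscle genes passed in either direction by limma. At an unadjusted p under 0.05, 1 endothelial and 3 smooth muscle genes were lower and 1 skeletal muscle gene was higher. Of all genes 5.44% were lower and 8.69% higher at that p. Cnn1, 1 of the 3 smooth muscle genes, entered through its young pools, with a probe well above background on 4 young and 3 aged arrays. The mean of the smooth muscle list, centred on each gene's mean, ranged from 0.10 to 0.27 in young and from −0.28 to 0.04 in aged pools, and was lowest in aged replicate 3. The mean of the erythroid list ranged from −1.25 to 0.45 in young and from −0.76 to 1.14 in aged pools. That of the 2 mesothelial genes, Msln and Wt1, ranged from −0.68 to 0.56 in young and from −1.18 to 1.32 in aged pools. It was highest in aged replicate 2 and lowest in aged replicate 3. The Msln probe was well above background on 4 young and 3 aged arrays. Of the 6 listed skeletal muscle genes, Myh1, Myh2 and Myog were well above background on no array, Myh4 was on 2 young and 4 aged arrays, and Tnnt3 and Actn3 were on all 8. The differences of Myh4, Tnnt3 and Actn3 were 0.49, 0.23 and 0.26. The part of these markers in the members' values was not tested.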

How the data were processed

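RNA of 8 pools was measured on 1-colour Agilent arrays on 1 slide, scanned on 1 date. The authors deposited scanner output, an intensity per spot from Feature Extraction 10.10.1.1 with background subtracted, and a quantile-normalized table of log2 values, whose background step and filter the sources used here do not state. Flagged spots and controls were left out, and each deposited processed signal was divided by the 75th percentile of its array before log2 was taken. Between 57.8% and 63.4% of spots were well above background, none was saturated, and the 75th percentile signal was 472 to 801. The number of arrays limits the precision.

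For a gene with several kept probes the one with the highest mean signal was used. Groups came from the sample labels. The age groups were compared by limma 3.58.1 (R 4.3.3) with Benjamini-Hochberg adjustment. The submitters' processing notes name limma for the authors' test. Simulated data for this comparison were made in 5 runs over the genes with a value in every pool. True log2 changes of 0.5, 1 and 2 were called in 29.0%, 71.3% and 96.4% of the altered genes. False calls made up 6.57% of all calls. The noise was drawn for each gene alone, with no shift that the genes of 1 pool share, so real data can give more false calls. Correlations over pools were tested by exact permutation with scipy 1.17.1. Tables were made with pandas 2.3.3 and figures with matplotlib 3.10.9. Promoter and probe sequences were read from the RefSeq table and the array files.

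Named genes are the 10 members, in each list up to 4 called genes or the 1 with the largest difference where none was called, the 10 genes most like the members, and the sorting markers. The members and lists were chosen with earlier results of these data known. Alternatives were quantile normalization, median scaling, normexp with an offset of 50, the authors' log2 table, other filters on dim probes, other uses of several probes, replicate number, pool code and slide row as blocks, trend and robust options, array weights and leaving out each pool.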

Additional observations from a re-analysis of the deposited data

Results flagged for a closer look

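In the aged pools of Actc1 the lowest pool, aged replicate 4 at −1.93 on the log2 scale, lay far from the other aged pools, with a gap to its nearest neighbour of 0.955 of the range of the group. That was 1 of 30 groups of 4 pools looked at, and chance flags about 1 in 20.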

How the results depend on the processing

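Each difference of the 9 members kept its direction under the 21 other settings, except that of Nppa, which was 0.024 with array weights, 0.050 without young replicate 5 and 0.015 without aged replicate 4, and which ranged from −0.53 to 0.050 with 1 pool left out. The number of members lower in aged pools was 2. It was 1 with median scaling and with every kept probe as its own feature, 0 with normexp, with no filter on dim probes and with limma's trend and robust options, and 0 to 1 when 1 pool was left out. It was 3 with array weights (Tnni3, Tnnc1 and Pln), 2 with mean probes and slide row as a block (Tnni3 and Pln), and 2 with quantile normalization, the authors' table and probes well above background on all 8 arrays (Tnni3 and Tnnc1, with Pln not tested in the last). No setting gave a member higher in aged pools. Tnni3 lost its call in 15 of 21 settings and Pln in 14 of 20. The replicate numbers were shared by 3 pairs of pools, whose deviations correlated at 0.18, −0.17 and −0.27. These pairs also carried matching pool codes, although the codes of replicate 4 matched only in part. So few correlations cannot tell whether the pools were paired. With the replicate block, 0 members and 0 related genes passed in either direction, as did only 2 lower and 14 higher of all 20096 genes. With the replicate block by pool code 0 members, 1 lower and 1 higher related gene passed, and 51 lower and 211 higher of all genes. The related genes, 2 lower and 1 higher, became 1 lower with no filter on dim probes and 1 to 2 lower and 1 higher with 1 pool left out. The 24 correlated pairs became 14 with normexp and 0 to 23 with 1 pool left out, and within groups 4 pairs passed with quantile normalization and 0 with 1 pool left out. Dim probes such as that of Pln limit what can be read from their size. The cause of these changes was not tested.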
